A study of Mus musculus with 6 samples.

Results

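The genes described here encode the steps of cholesterol and fatty acid synthesis and the proteins that control them. They were chosen by symbol, 29 of the 18227 genes in the deposited table: 18 genes of sterol steps, 5 regulators and 6 genes of fatty acid steps. Earlier results of these data were known at that choice, so their shares against all genes may not be independent of it. All 29 passed the filter on low counts and were tested, with 242 to 30132 counts per gene and library. The libraries came from corneas of male C57BL/6 mice aged 6 weeks, 3 from Muc13 knockouts (Muc13-/-, KO 1 to 3) and 3 from wild-type (WT) mice of the same age and sex (WT 1 to 3). Values of the 3 libraries of a genotype are given in the order of their numbers. Muc13 is a transmembrane mucin of epithelial surfaces. The labels give neither the deleted part of the gene nor whether a sample held the corneas of 1 mouse, so p-values measure the spread between these samples, which may be technical. The design asks what loss of Muc13 does to gene expression in the cornea.

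Cells build cholesterol from acetyl-CoA through mevalonate, the isoprenoids, squalene and lanosterol, and they build fatty acids from the same acetyl-CoA through malonyl-CoA. The SREBP transcription factors, encoded by Srebf1 and Srebf2, switch on the genes of both routes. When the membrane of the endoplasmic reticulum holds little sterol, SCAP carries the SREBPs to the Golgi to be cut into their active form, and when sterol is plentiful INSIG proteins keep SCAP back. Stratified epithelia, such as that of the cornea, divide throughout life and need both lipids for new membranes.

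The libraries held different shares of tissue, which touches every result below. Total expected counts ran from 14068900 to 14832500 in the knockouts and from 14886500 to 15480300 in the wild type. Krt12, the keratin that marks corneal epithelium, took 1.36%, 1.16% and 0.151% of the counts in KO corneas, against 3.49%, 2.90% and 1.08% in WT corneas. The 23 listed corneal epithelium markers, all detected in every library, summed to between 6002 and 37302 CPM (counts scaled to the TMM-adjusted library size) in the knockouts and to between 28812 and 119559 CPM in the wild type. The 20 retina markers, of which at least 18 were detected in each library, summed to between 22524 and 39009 CPM in the knockouts, to 25658 CPM in WT 3, and to 96.2 and 339 CPM in WT 1 and WT 2. WT 1 and WT 2 were thus rich in epithelium with little retina, and WT 3 was like KO 1 and KO 2 in both. Lens markers summed to 3325, 74240 and 81.9 CPM in KO corneas, against 13.7, 3159 and 36210 CPM in WT corneas. Skeletal muscle markers (14 of 14 detected in every library) summed to 125, 1203 and 645 CPM in KO corneas, against 5000, 4018 and 410 CPM in WT corneas, highest in WT 1 and WT 2 like epithelium. The 7 retinal pigment epithelium markers summed to 610, 838 and 2544 CPM in KO corneas, against 104, 171 and 335 CPM in WT corneas, and these sums did not overlap. The 8 melanocyte and iris markers summed to 937, 1823 and 6584 CPM in KO corneas, against 13.8, 431 and 2786 CPM in WT corneas. In such bulk samples fewer cells of a type and less RNA per cell cannot be told apart. Muc13 had 9, 4 and 2 counts in KO corneas, against 18, 21 and 9 counts in WT corneas. KO 1 and WT 3 had the same count, and Muc13 did not pass the filter on low counts, so it was not tested.

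Sterol step genes were lower on average in the knockout corneas, but none passed the test. Of the 18, 17 had a log2 fold change below 0, where 48.5% of all 14983 genes tested did. Their median was −0.94 against 0.02 for all genes tested, and the range ran from −1.28 for Fdps to 0.46 for Ggps1. Adjusted over all genes with edgeR's quasi-likelihood test, 0 of the 18 passed, as did 0 of all genes (0%), and the smallest adjusted p of a sterol gene was 0.501. DESeq2 called 0.48% of the genes it tested and 0 of the 29. At an unadjusted p under 0.05 there were 3 lower (Mvk, Tm7sf2 and Nsdhl), against 3.66% of all genes, and 1 higher (Ggps1), against 0.721%. In no sterol gene did every knockout library lie below every wild-type library, which 5.51% of all genes did.

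The first enzyme given here, HMG-CoA synthase (Hmgcs1, chromosome 13, 119690379 to 119708260 on GRCm38, the build of all positions here), was at 334, 249 and 158 CPM in KO corneas, against 698, 576 and 293 CPM in WT corneas. KO 1 lay above WT 3, so the groups overlapped. KO over WT this gave a log2 fold change of −1.08 (SE 0.455, edgeR adjusted p = 0.501). Mevalonate kinase (Mvk, chromosome 5, 114444269 to 114460591) had 38.3, 30.3 and 24.5 CPM in KO corneas, against 85.6, 71.5 and 35.2 CPM in WT corneas. Here too only KO 1 exceeded the lowest wild-type library. The log2 fold change of Mvk was −1.05 (SE 0.375, adjusted p = 0.501), with the smallest unadjusted p of the 29 genes (edgeR, 0.0336).

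The other early steps were less alike. Idi1, the isomerase that gives the second isoprenoid unit, averaged 98.6 ± 26.4 CPM in the knockouts and 190 ± 86.8 CPM in WT corneas (SD, n = 3 each). Mvd, the decarboxylase, averaged 30.7 ± 11.3 CPM in the knockouts and 47.7 ± 13.9 CPM in the wild type. Pmvk, phosphomevalonate kinase, stood closer to level, at 35.6 ± 4.89 CPM in the knockouts and 43.7 ± 12.9 CPM in the wild type, with a log2 fold change of −0.30 (SE 0.261). On the log2(TPM + 1) scale, from the authors' TPM, Pmvk was on the other side of 0, at 0.021.

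Fdps and Ggps1, which encode neighbouring prenyl synthases, stood at opposite ends of the sterol genes. Farnesyl diphosphate synthase (Fdps, chromosome 3, 89093588 to 89101959) makes the branch point isoprenoid and was at 267, 164 and 78.9 CPM in KO corneas, against 614, 444 and 183 CPM in WT corneas. Its log2 fold change was −1.28 (SE 0.627, adjusted p = 0.501), and its highest library held 7.78 times the CPM of its lowest, the widest span of the 29. Some Fdps counts were not whole, so reads shared with similar genes enter its value, as for Tm7sf2.

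Geranylgeranyl diphosphate synthase (Ggps1, chromosome 13, 14050659 to 14063488) lengthens the Fdps product for protein prenylation, off the route to sterols. It had 47.9, 46.2 and 44.1 CPM in KO corneas, against 29.7, 30.6 and 40.5 CPM in WT corneas. All 3 knockout libraries lay above all 3 wild-type libraries, the only one of the 29 genes whose groups did not overlap; 4.71% of all genes lay apart in this direction. The log2 fold change of 0.46 (SE 0.176) did not pass (adjusted p = 0.501). WT 3, the wild-type library with retina RNA, was the one nearest to the knockouts.

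On the squalene steps, squalene synthase (Fdft1) was at 163, 114 and 99.2 CPM in KO corneas, against 298, 225 and 127 CPM in WT corneas. Squalene epoxidase (Sqle), a rate-limiting enzyme of the late pathway, was at 187, 112 and 101 CPM in KO corneas, against 338, 290 and 135 CPM in WT corneas. Both repeat the order of Hmgcs1, with WT 1 highest, KO 3 lowest and KO 1 above WT 3. Their log2 fold changes were −0.79 (SE 0.382) for Fdft1 and −0.93 (SE 0.440) for Sqle, each with an adjusted p = 0.501. Lanosterol synthase (Lss), which closes the sterol rings, averaged 65.2 ± 36.3 CPM in the knockouts and 131 ± 47.7 CPM in WT corneas (SD, n = 3 each).

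The genes after lanosterol also had WT 1 and WT 2 as their highest pair and KO 3 as their lowest library. Methylsterol monooxygenase (Msmo1), which starts the removal of methyl groups, was at 159, 101 and 88.1 CPM in KO corneas, against 310, 244 and 113 CPM in WT corneas, a log2 fold change of −0.94 (SE 0.447). The sterol reductase Tm7sf2 (chromosome 19, 6062821 to 6068373) had 27.6, 22.9 and 15.8 CPM in KO corneas, against 60.8, 45.3 and 26.8 CPM in WT corneas. KO 1 and WT 3 were nearly level for this gene, and the log2 fold change of −1.0 (SE 0.370) did not pass (adjusted p = 0.501). The remaining late genes ran from −1.06 (SE 0.536) for the desaturase Sc5d to −0.68 (SE 0.290) for Dhcr7, the reductase of the last step, with the lanosterol demethylase Cyp51 at −0.90, Nsdhl at −0.96, Ebp at −0.78 and Hsd17b7 at −0.69 in between.

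What the sterol genes shared most was the order of the libraries rather than a split by genotype. WT 1 and WT 2 were the highest pair of libraries in 17 of the 18, against 34.2% of all genes tested, and KO 3 was the lowest in 15, against 27.2%. KO 1 lay above WT 3 in all 18, against 52.4% of all genes. KO 2 lay below WT 3 in 17 of the 18, against 49.9%, and the combination of both occurred in the same 17, against 23.5%. Summed over the 18 genes, the level was 2054, 1394 and 1043 CPM in KO corneas, against 3913, 3167 and 1596 CPM in WT corneas. The knockout sums averaged 1497 ± 514 CPM and the wild-type sums 2892 ± 1183 CPM (SD, n = 3 each), and they overlapped. The corneal epithelium markers had the same extremes, with WT 1 and WT 2 at the top and KO 3 at the bottom. The muscle markers were also highest in WT 1 and WT 2, and the part of either in the result was not tested.

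**Figure D1:**
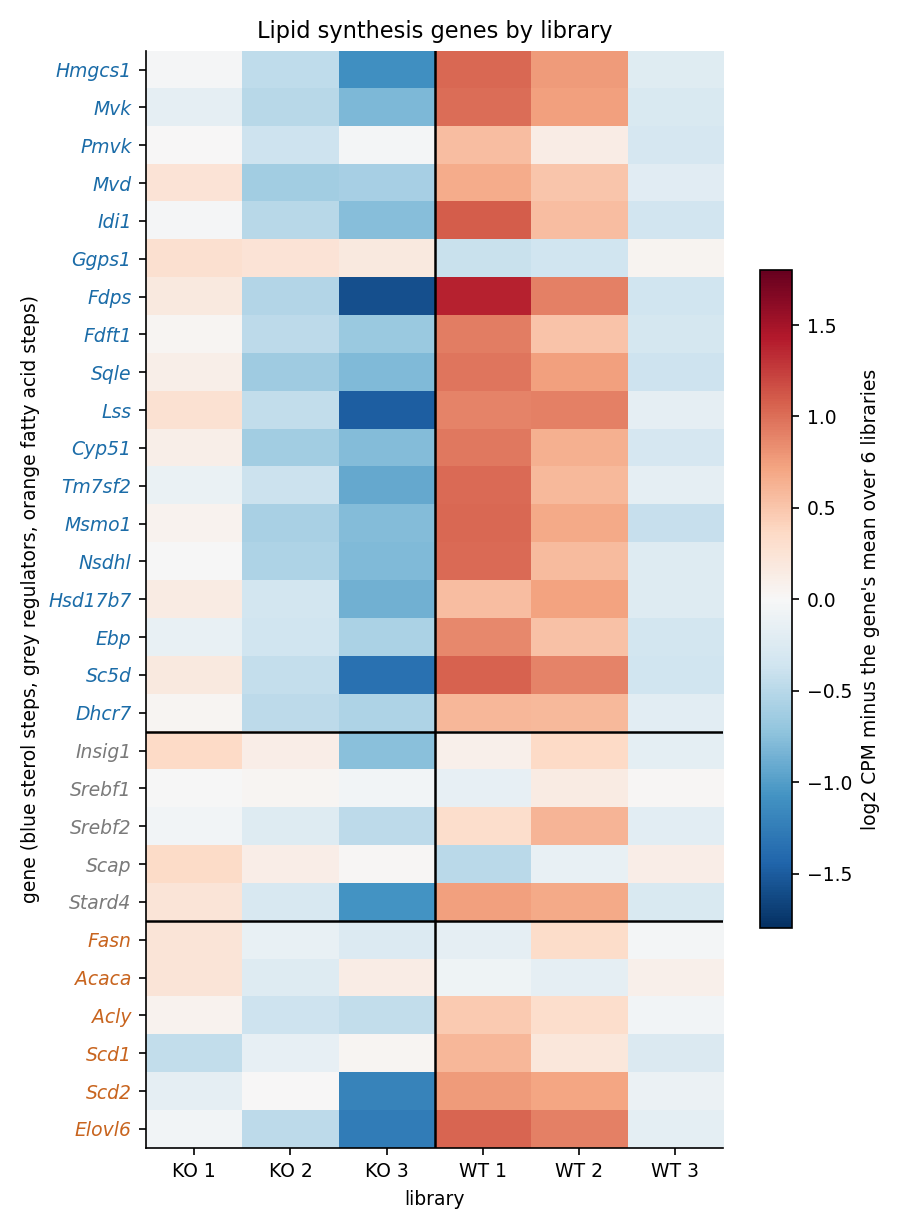
Log2 CPM of the 29 genes in each library (columns), minus the mean of each gene over the 6 libraries, with sterol steps at the top, regulators in the middle and fatty acid steps at the bottom. WT 1 and WT 2 are the highest pair in 17 of 18 sterol genes, and Ggps1 runs the other way.

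Set against WT 3 alone, the wild-type library with a retina sum in the range of the knockouts, the sterol difference was smaller and differed in sign between knockout corneas. The median log2 difference from WT 3 over the 18 genes was 0.34 for KO 1, −0.19 for KO 2 and −0.45 for KO 3. KO 1 was above WT 3 in 18 genes, KO 2 in 1 and KO 3 in 2. The 3 knockouts together gave a median of −0.13 against WT 3, with 16 of the 18 genes below 0, against 53.6% of all genes. With KO 3 left out as well, chosen after seeing its Krt12 share, the median was 0.083. Neither contrast holds a spread between wild-type samples, so neither is a test.

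**Figure D2:**
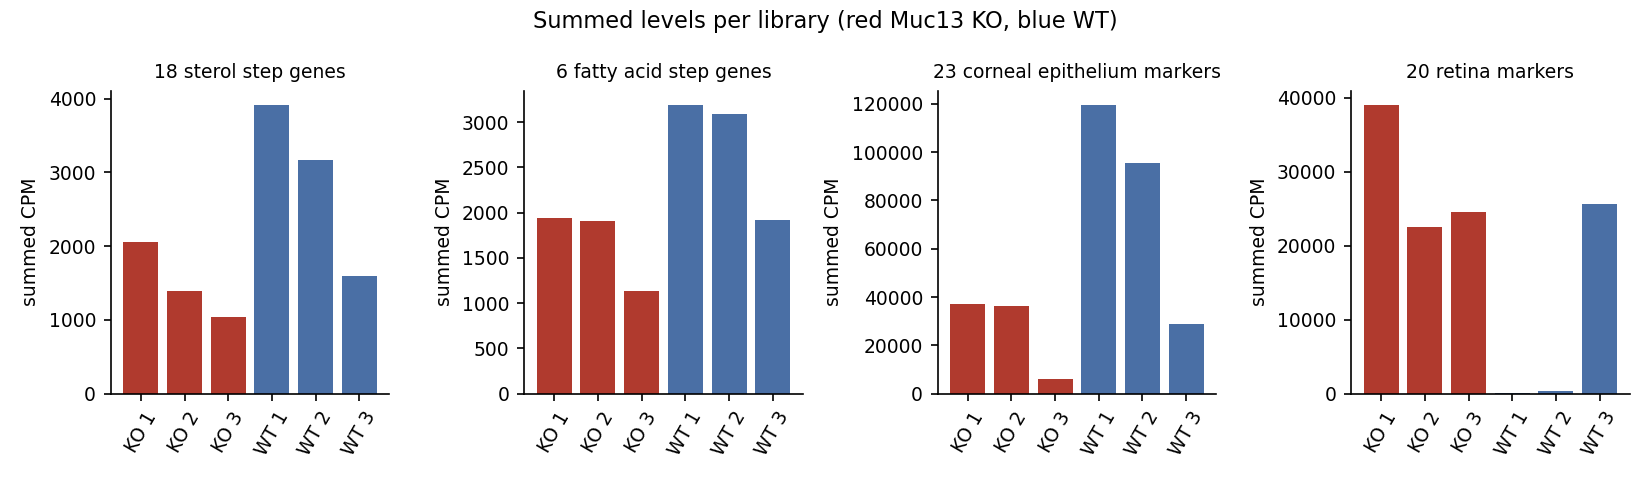
Summed CPM per library of the sterol genes, the fatty acid genes, the corneal epithelium markers and the retina markers, with KO bars in red and WT bars in blue. The sterol sums of 3913 and 3167 CPM in WT 1 and WT 2 stand above the other 4 libraries, as do their epithelium sums.

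The starts of these genes were compared because so many of the sterol genes varied together. RefSeq promoter windows of 300 bases, 250 before and 50 after the start, were matched for 23 of the 29 genes. Where a gene had several starts, a match in any of its windows counted. CCAAT, the core of the NF-Y box, was found on either strand in all 15 matched sterol genes, in 3 of 4 regulators and in 2 of 4 fatty acid genes, against 42.6% of the tested genes with a window and 41.1% of all. Dhcr7, Pmvk and Srebf1 held it in some of their windows and not in others. TCACNCCAC, close to the classical sterol regulatory element, was found on either strand in 1 of the 23, Hmgcs1, against 1.39% of tested genes. The E-box CACGTG was in 5 of the 23 against 11.1% of tested genes, and the GC box GGGCGG in 18 against 66.0%. A match describes letters only, and none of the 4 motifs contains another. The 200 bases before the start are shown for early and late sterol genes (Hmgcs1, Mvk, Mvd, Ebp), for Ggps1 as the sterol gene with the opposite order, and for Fasn as a fatty acid gene. Capitals mark CCAAT or its reverse complement ATTGG, and in Hmgcs1 also TCACCCCAC, 137 bases before the start.
Hmgcs1 (chr13:119690151-119690350, plus strand): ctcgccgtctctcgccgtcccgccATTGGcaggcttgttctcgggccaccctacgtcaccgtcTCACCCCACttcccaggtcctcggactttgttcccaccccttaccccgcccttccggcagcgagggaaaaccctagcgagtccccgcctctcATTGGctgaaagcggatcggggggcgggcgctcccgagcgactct
Mvk (chr5:114444069-114444268, plus strand): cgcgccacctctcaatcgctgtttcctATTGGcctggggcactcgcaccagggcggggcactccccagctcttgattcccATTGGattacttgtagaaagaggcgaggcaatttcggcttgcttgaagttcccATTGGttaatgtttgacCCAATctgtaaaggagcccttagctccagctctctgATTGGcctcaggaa
Mvd (chr8:122443423-122443622, minus strand): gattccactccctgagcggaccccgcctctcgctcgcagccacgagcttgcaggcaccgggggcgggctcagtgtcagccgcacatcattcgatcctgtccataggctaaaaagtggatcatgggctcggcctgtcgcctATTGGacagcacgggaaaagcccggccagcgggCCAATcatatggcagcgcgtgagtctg
Ebp (chrX:8193513-8193712, minus strand): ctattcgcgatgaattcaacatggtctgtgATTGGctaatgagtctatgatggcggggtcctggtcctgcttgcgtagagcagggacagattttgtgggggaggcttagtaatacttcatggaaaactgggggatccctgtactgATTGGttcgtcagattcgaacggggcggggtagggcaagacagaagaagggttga
Ggps1 (chr13:14063489-14063688, minus strand): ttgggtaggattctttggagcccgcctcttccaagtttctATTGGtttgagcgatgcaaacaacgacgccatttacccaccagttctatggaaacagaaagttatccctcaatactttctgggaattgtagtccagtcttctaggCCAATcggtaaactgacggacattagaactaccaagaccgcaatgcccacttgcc
Fasn (chr11:120824548-120824747, minus strand): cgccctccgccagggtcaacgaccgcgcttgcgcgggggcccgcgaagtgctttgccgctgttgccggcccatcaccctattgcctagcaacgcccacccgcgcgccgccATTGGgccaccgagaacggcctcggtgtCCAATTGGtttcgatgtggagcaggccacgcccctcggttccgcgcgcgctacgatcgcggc
Mvk holds 5 CCAAT boxes in this window and Fasn 3, of which a pair overlaps as CCAATTGG. The other 4 genes shown hold 2 each, Ggps1 included. Whether the box bears on the levels of these genes was not tested.

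The 5 regulators differed among themselves, and none passed. Srebf2 and Stard4 had WT 1 and WT 2 as their highest pair and KO 3 as their lowest library, as most sterol genes did, and Srebf1, Scap and Insig1 did not. Their median log2 fold change was −0.13, and their sum was 856, 753 and 575 CPM in KO corneas, against 835, 1005 and 710 CPM in WT corneas. Srebf2, the SREBP gene more tied to sterol synthesis, was at 242, 214 and 182 CPM in KO corneas, against 312, 385 and 220 CPM in WT corneas. KO 1 again exceeded WT 3. Its log2 fold change was −0.52 (SE 0.287, adjusted p = 0.501). Srebf1, more tied to fatty acid synthesis, was the steadiest of the 29, at 151, 155 and 146 CPM in KO corneas, against 136, 168 and 153 CPM in WT corneas. Its highest library held 1.23 times the CPM of its lowest, with a log2 fold change of −0.02 (SE 0.171, adjusted p = 0.957).

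Scap, the escort of the SREBPs, had 113, 96.2 and 90.0 CPM in KO corneas, against 63.0, 80.9 and 96.3 CPM in WT corneas. Only WT 3 lay among the knockouts, and KO over WT the log2 difference was 0.31 (SE 0.212, adjusted p = 0.501). Insig1, which holds SCAP in the endoplasmic reticulum and is itself an SREBP target, was at 294, 249 and 135 CPM in KO corneas, against 245, 295 and 202 CPM in WT corneas. Unlike the sterol enzymes, its KO 1 level was close to that of WT 2, the highest library, and KO over WT the log2 difference was −0.13 (SE 0.353, adjusted p = 0.818). Stard4 (chromosome 18, 33199355 to 33213862), a cytosolic sterol carrier, followed the sterol enzymes, with 56.2, 39.0 and 22.6 CPM in KO corneas, against 80.0, 76.7 and 39.6 CPM in WT corneas. Its log2 fold change was −0.74 (SE 0.429, adjusted p = 0.501).

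Fatty acid step genes varied in their order of libraries, with Acly, Scd1, Scd2 and Elovl6 highest in WT 1 and WT 2 and Fasn and Acaca not. Their median log2 fold change was −0.44, with 5 of the 6 below 0 and 0 passing. Acetyl-CoA carboxylase (Acaca), the committed step, averaged 82.3 ± 13.4 CPM in the knockouts and 76.6 ± 7.06 CPM in WT corneas (SD, n = 3 each), a log2 fold change of 0.10 (SE 0.183). Fatty acid synthase (Fasn, chromosome 11, 120805846 to 120824547) was at 229, 178 and 164 CPM in KO corneas, against 174, 244 and 191 CPM in WT corneas. The knockout and wild-type libraries were interleaved, and its log2 fold change was −0.09 (SE 0.242, adjusted p = 0.811). Scaled by library size alone, the signs of Fasn, Srebf1 and Insig1 turn to 0.073, 0.15 and 0.042, a scaling that moves the median of all genes to 0.19.

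ATP citrate lyase (Acly), which supplies acetyl-CoA to both routes, was at 302, 222 and 213 CPM in KO corneas, against 400, 360 and 278 CPM in WT corneas. KO 1 lay between WT 3 and WT 2, and KO over WT the log2 difference was −0.49 (SE 0.270, adjusted p = 0.501). Elovl6 (chromosome 3, 129532355 to 129638495), the elongase of palmitate, was at 107, 79.8 and 46.7 CPM in KO corneas, against 231, 209 and 97.9 CPM in WT corneas. It had the order of the sterol genes and a log2 fold change of −1.20 (SE 0.454), with an unadjusted edgeR p of 0.0403 and an adjusted p = 0.501.

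The stearoyl-CoA desaturases Scd1 and Scd2, which put the double bond into long-chain fatty acids, are neighbours on chromosome 19. Scd2 was the abundant one, at 362, 317 and 160 TPM in KO corneas, against 399, 510 and 359 TPM in WT corneas, and it made up 51.0% to 69.7% of the summed TPM of the 6 fatty acid genes. Scd1 was at 15.8, 15.2 and 19.9 TPM in KO corneas, against 18.9, 19.0 and 17.0 TPM in WT corneas. The ratio of Scd2 to Scd1 was 8.02 in KO 3 and between 20.9 and 26.8 in the other 5 libraries. In CPM the log2 fold changes were −0.87 (SE 0.490) for Scd2 and −0.40 (SE 0.267) for Scd1, and neither passed (adjusted p = 0.501 for each). The fatty acid genes summed to 1944, 1911 and 1138 CPM in KO corneas, against 3189, 3094 and 1916 CPM in WT corneas.

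Per transcript length the 29 genes spanned a wide range of levels. Fdps had the highest mean over the 6 libraries, at 380 TPM, with Scd2 next at 351 TPM. Fdps was at 268 ± 174 TPM in the knockouts and 492 ± 170 TPM in the wild type, and Scd2 at 280 ± 106 TPM in the knockouts and 423 ± 78.3 TPM in the wild type (SD, n = 3 each), so these neighbours in the order did not differ beyond their spread. Hmgcs1 (161 TPM), Insig1 (130 TPM) and Msmo1 (125 TPM) followed, again with means closer than their spreads, although Hmgcs1 was above Msmo1 in every library. Acaca (13.7 TPM) and Hsd17b7 (8.73 TPM), a late keto reductase, were at the low end. The sterol genes summed to 1715, 901 and 759 TPM in KO corneas, against 1954, 2045 and 1235 TPM in WT corneas, so on this scale KO 1 was closer to WT 1 than in CPM. The authors' TPM scaling shifts the median of all genes to 0.22 and gave a sterol median of −0.61 and a fatty acid median of −0.18.

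Relative to Krt12 the picture changed sign. Counts per 1000 Krt12 counts, summed over the sterol genes, were 162, 120 and 774 in KO corneas, against 93.0, 102 and 160 in WT corneas. The fatty acid sums were 153, 164 and 845 in KO corneas, against 75.8, 99.3 and 192 in WT corneas. KO 3 was the highest library for all 29 genes, by 2.78 times the next library for Fdps and by 9.12 times for Scd1. It had 21842 Krt12 counts, against 191124 and 172109 in KO 1 and KO 2 and 160416 to 540883 in the wild type. Apart from KO 3, WT 1 and WT 2 had the lowest ratios and WT 3 was close to KO 1 for the sterol genes and above both KO 1 and KO 2 for the fatty acid genes.

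In the edgeR fit scaled to Krt12, all 29 genes had a log2 change above 0, as did 99.5% of all genes, and 0 passed (0% of 14982 genes), none of them at an unadjusted p under 0.05 either, where 1646 of all genes were. The medians were 1.70 for sterol, 2.05 for regulators and 2.18 for fatty acid genes, against 2.56 for all genes tested, with SEs of 1.48 to 1.61. Of the 29, 26 lay below that median of all genes, the same number as lay below it with TMM scaling. Ggps1, Scap and Acaca were above it. Insig1 was the only gene of the 29 with every knockout library above every wild-type library, at 23.2, 21.4 and 100.5 per 1000 Krt12 counts in KO corneas, against 5.81, 9.45 and 20.2 in WT corneas. Of all genes, 4.43% lay apart in this way, while 0.0267% lay apart in the other direction and 0 of the 29 did. The ratio of Insig1 was far higher in KO 3 than elsewhere and close to WT 3 in KO 1 and KO 2. Without KO 3 the medians were 0.28 for sterol and 0.39 for fatty acid genes, against 0.65 for all genes.

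**Figure D3:**
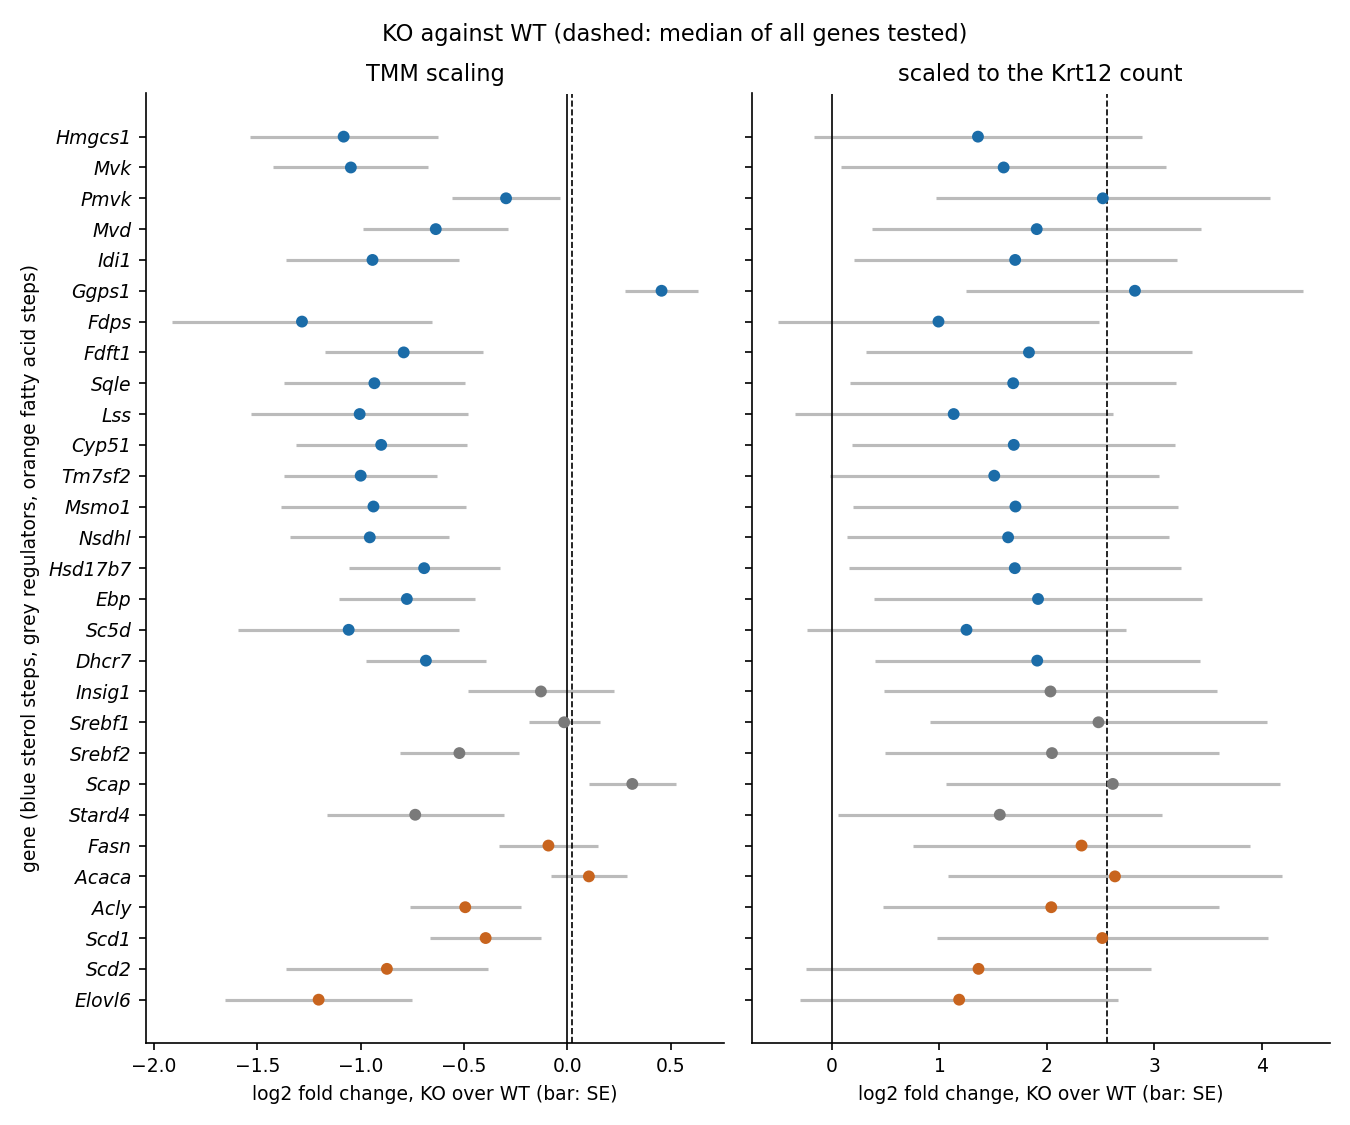
Log2 fold change of KO over WT for the 29 genes with its SE, under TMM scaling on the left and with the Krt12 count as library size on the right; the dashed line is the median of all genes tested. With TMM 26 genes lie below 0 and with Krt12 all 29 lie above it, and the same number, 26, lie below the dashed line in each panel.

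Other epithelial references also gave values above 0, which were smaller. Per 1000 counts of Krt5 and Krt14, keratins of basal cells, the sterol genes summed to 228, 172 and 786 in KO corneas, against 148, 143 and 236 in WT corneas. Against the summed counts of the other epithelium markers they came to 83.4, 56.4 and 224 in KO corneas, against 50.5, 49.3 and 84.8 in WT corneas. The fitted medians were 1.28 and 1.08 for sterol genes and 1.76 and 1.53 for fatty acid genes, below the 2.11 and 1.87 of all genes. There were 0 genes of the table passing under either reference (edgeR, 1422 and 400 genes at an unadjusted p under 0.05).

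**Figure D4:**
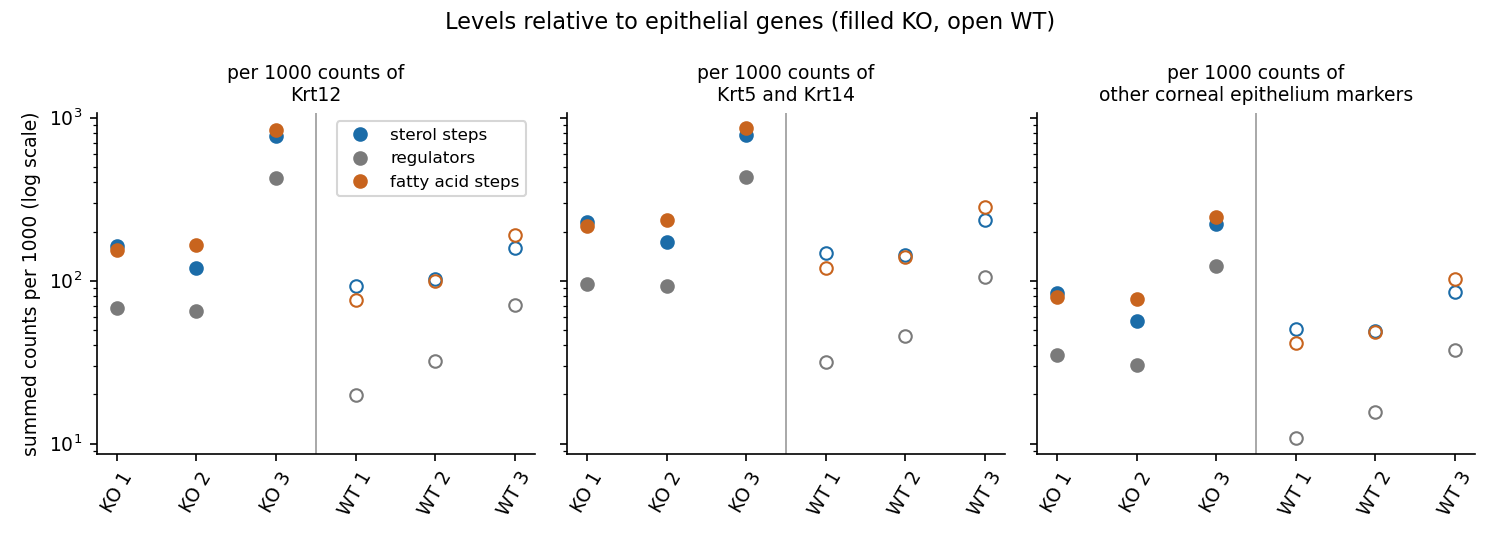
Summed counts of sterol genes, regulators and fatty acid genes per 1000 counts of Krt12, of Krt5 and Krt14, and of the other corneal epithelium markers, on a log axis, with filled points for KO and open points for WT. KO 3 is the highest library in each panel (774 for sterol genes per 1000 Krt12), and WT 1 and WT 2 are the lowest libraries in each.

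Ratios of 2 genes within a library do not depend on the size given to that library, and they were compared for 6 pairs, chosen after the values were seen. Taken on TPM, they do carry the scaling by transcript length, which can differ between libraries. The ratio of Hmgcs1 to Insig1, both SREBP targets, was 0.910, 0.804 and 0.943 in KO corneas, against 2.30, 1.57 and 1.17 in WT corneas. All knockout ratios lay below all wild-type ratios, with a log2 difference of −0.87 and a p of 0.1 in the exact permutation test (two-sided), which 3 against 3 cannot go below, or 0.24 adjusted over the 6 pairs. That adjustment does not cover the choice of these pairs from the other possible ones. The ratio of Hmgcs1 to Fasn was 4.07, 3.94 and 2.71 in KO corneas, against 11.4, 6.56 and 4.30 in WT corneas. These groups did not overlap either, with a log2 difference of −0.96 and an exact permutation p of 0.1, although KO 1 and WT 3 were close.

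The remaining 4 ratios overlapped between genotypes. Fdps to Ggps1 was 17.1, 9.26 and 4.91 in KO corneas, against 51.9, 37.6 and 12.4 in WT corneas, a log2 difference of −1.65 (exact permutation p = 0.2). KO 1 exceeded WT 3, and WT 1 and WT 2 stood far above both. Elovl6 to Acaca had a log2 difference of −1.27 and Srebf2 to Srebf1 one of −0.51, each with an exact permutation p of 0.2, and Scd2 to Scd1 one of −0.55 with an exact permutation p of 0.4. Summed sterol over summed fatty acid TPM was 2.91, 1.97 and 2.43 in KO corneas, against 3.39, 2.79 and 2.21 in WT corneas, and the genotypes overlapped.

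**Figure D5:**
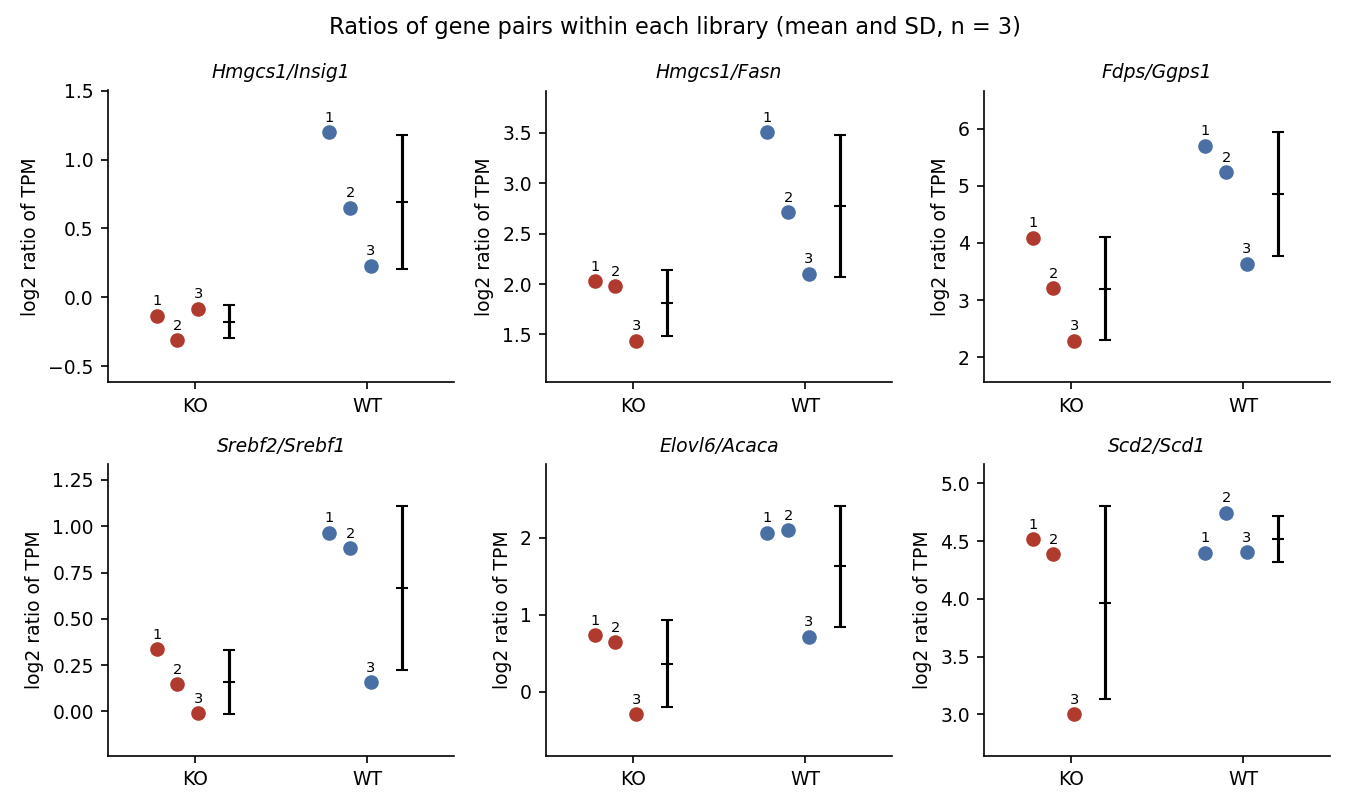
Log2 ratio of the TPM of 2 genes in each library for 6 pairs, numbered by replicate, with the mean and SD of each group (n = 3) beside the points. The KO points lie below all WT points for Hmgcs1 over Insig1 and for Hmgcs1 over Fasn, and KO and WT overlap in the other 4 pairs.

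Genes around these pathways were read from further lists, and 0 members of any list passed in either direction. The 4 further sterol synthesis genes in the table had a median log2 fold change of −0.81, with 4 of 4 below 0. Acat2, which makes acetoacetyl-CoA for Hmgcs1, was at −0.95 (SE 0.450), and Erg28, a scaffold of the demethylation enzymes known from yeast, was at −0.67 (SE 0.299). Every knockout library lay below every wild-type one for Erg28, as for 5.51% of all genes tested, though KO 1 (28.8 CPM) and WT 3 (29.2 CPM) were close. Genes that use isoprenoids to modify proteins or make dolichol and ubiquinone had a median of −0.024 over 14 members, with the farnesyltransferase subunit Fntb at 0.39 and the protease Zmpste24 at −0.59. Other genes of SREBP control had a median of −0.18 over 12 members, led by Erlin1 at −1.10 (SE 0.491) and the ubiquitin ligase Rnf139 at −0.41.

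Sterol uptake, storage and export genes lay the other way, with a median of 0.45 and 16 of 22 above 0, against 51.5% of all genes. Their sum was 2478, 2881 and 5136 CPM in KO corneas, against 1489, 1926 and 2632 CPM in WT corneas. It was highest in KO 3 and lowest in WT 1, as were the sums of the pigment epithelium and the melanocyte markers, whose part in it was not tested. Nr1h3, which encodes the sterol-sensing receptor LXR alpha, was at 2.85, 3.78 and 5.79 CPM in KO corneas, against 1.40, 2.06 and 2.06 CPM in WT corneas. All knockout libraries lay above all wild-type libraries, as for 4.71% of all genes tested, and the log2 fold change of 1.17 (SE 0.438) did not pass (adjusted p = 0.501). Mylip, a ligase that removes lipoprotein receptors and is switched on by LXR, was at −0.69 (SE 0.310).

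The other fatty acid synthesis and elongation genes had a median of −0.27 over 24 members. The dehydratase Hacd2, which acts in the same elongation cycle as Elovl6, averaged 44.1 ± 13.5 CPM in KO corneas and 106 ± 52.5 CPM in WT corneas (SD, n = 3 each), with a log2 fold change of −1.26 (SE 0.487). Slc25a1, the citrate carrier that feeds Acly, was at −0.65 (SE 0.269). Glycerolipid genes had a median of 0.16 over 17 members, although Acsl5 (−1.73, SE 0.605) and Dgat2 (−1.08, SE 0.439), an acyl-CoA synthetase and an enzyme of triglyceride synthesis, lay below 0. Fatty acid oxidation genes, the route in the opposite direction, had a median of −0.27 over 20 members, with Echs1 at −0.80 and Ehhadh at −0.63.

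Other cells that make much lipid were checked by their markers. The 9 meibomian gland markers in the table summed to 37.6, 45.1 and 91.7 CPM in KO corneas, against 14.5, 15.7 and 42.5 CPM in WT corneas, most of it Soat1, and Awat2, a wax synthase of that gland, had 21, 15 and 18 counts in KO corneas, against 9, 5 and 10 in WT corneas. The 8 fat cell markers summed to 11.7, 41.6 and 70.6 CPM in KO corneas, against 67.1, 50.8 and 30.4 CPM in WT corneas, and their hormone Adipoq had 2, 0 and 0 counts in KO corneas, against 12, 0 and 0 in WT corneas. Fabp4, a fatty acid carrier of fat cells and capillaries named here after its values were seen, was at 2.85, 5.27 and 5.36 CPM in KO corneas, against 47.3, 23.3 and 4.61 CPM in WT corneas. It was highest in WT 1 and WT 2, as the sterol genes were. Plin4, the other fat cell marker that was tested, was not, with 7.82, 34.5 and 64.7 CPM in KO corneas, against 14.2, 26.8 and 24.4 CPM in WT corneas. The whole Schwann cell and myelin list summed to 2429, 1618 and 529 CPM in KO corneas, against 4686, 4253 and 1630 CPM in WT corneas. That sum was highest in WT 1 and WT 2 and lowest in KO 3, like the sterol genes. Mal, which epithelia also express, was most of the sum in every library but KO 3, where it was 208 of the 529 CPM. The members did not share the order of the sum. Their median log2 fold change was 0.0087, with 6 of the 10 above 0 and 4 below. The part of these cells in the results was not tested.

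Leaving out WT 3 sets the knockouts against WT 1 and WT 2 only, the libraries with little retina RNA. In that fit 11 sterol genes passed as lower, where 12.9% of all genes did, and 1, Ggps1, as higher, where 21.1% did; Elovl6 was the 1 fatty acid gene that passed. The sterol median was −1.23 there. Leaving out any other single library gave 0 calls over all genes.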

How the data were processed

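RNA was sequenced in 3 samples of Muc13 knockout cornea and 3 of wild-type cornea. The authors deposited 1 table of 18227 genes with expected counts (estimated reads per gene, not normalized, not all whole), TPM (scaled by transcript length and by library) and other columns not used here. For alignment, counting and strand, tools are not given in the sources used. The build is GRCm38 (mm10) per the submitters' processing notes. Member positions come from GENCODE M21 on that build, in which all 29 members were matched, and promoters from RefSeq, GRCm38.p6.

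Counts were rounded and tested with edgeR 4.0.16 (R 4.3.3), using the quasi-likelihood test, TMM scaling, filterByExpr and robust dispersion, with genotype as the only term and Benjamini-Hochberg adjusted p under 0.05 as the call. The filter kept 14983 genes, all 29 members among them. CPM are counts scaled to the TMM-adjusted library size. SEs were derived from the F statistic, as log2 fold change over its root. A further fit used each library's Krt12 count as its size. Pair ratios were taken on TPM, with exact two-sided permutation tests, for 6 pairs chosen after their values were seen. DESeq2 1.42.0 and limma 3.58.1 served as alternatives, with other filters, scalings, left-out libraries and a replicate term. The analysis was tested on simulated counts. No library repeated another (mean chi-square per gene at least 43.5). The pair with this lowest value, KO 2 and WT 3, was of different genotype, and WT 1 against WT 2 came next at 52.4. The members and lists were chosen with earlier results of these data known. The genes given library by library are a set chosen for their roles, and in each role the 3 with the smallest p and the one with the highest TPM. From each other list, up to 2 genes with the smallest p are named.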

Additional observations from a re-analysis of the deposited data

How the results depend on the processing

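The edgeR count of 0 genes held under other scalings, filters and limma-voom, and DESeq2's Wald test called 69 (9 higher and 60 lower), none of the 29. Leaving out each library gave 0 to 5166 calls, all of the 5166 without WT 3. The sterol median ran from −1.23 to −0.63 and the fatty acid median from −0.61 to −0.29 over these left-out libraries. Against WT 3 alone the sterol median was −0.13 and the fatty acid median −0.12, and with KO 3 also left out they were 0.083 and −0.053. Scaled by library size alone, Insig1 turned to 0.042, Srebf1 to 0.15 and Fasn to 0.073, and leaving out each library gave −0.36 to 0.14 for Insig1, −0.092 to 0.056 for Srebf1 and −0.25 to 0.058 for Fasn. The cause was not tested.

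Relative to Krt12, leaving out each library gave 0 to 1904 calls (1904 without WT 3), a sterol median of 0.28 (without KO 3) to 2.13 and a fatty acid median of 0.39 (without KO 3) to 2.85. Against WT 3 alone the fatty acid median was 0.66.

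Same-numbered libraries correlated at 0.09, 0.36 and 0.19, so the numbers were not taken to pair the samples. With a replicate block the TMM fit called 0 genes (smallest edgeR adjusted p 0.165), with a sterol median of −0.87. In that fit 16 of the 18 sterol genes had an unadjusted edgeR p under 0.05, against 4 in the main fit. Of all 14983 genes 2529 did, against 656 in the main fit. So did 1 of the 5 regulators and 2 of the 6 fatty acid genes. The Krt12 fit with that block called 11430 of 14982 genes, 11428 of them as higher. Among these were 2 of the 18 sterol genes, 4 of the 5 regulators and 4 of the 6 fatty acid genes, all as higher. Each KO library correlated best with its own number, but WT 1 correlated best with KO 2 (0.18). Counts of 242 or more per gene and library mean that the spread between samples, not depth, limits these comparisons.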
